A study of Mus musculus with 10 samples.

Results

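Messenger RNA of lysosomal enzymes and lysosomal membrane proteins was examined in the livers of mice treated with an antisense oligonucleotide (ASO) against miR-122. The set was a list of 32 named genes, with 1 probe per gene, taken as the single-gene probe with the highest mean over all arrays. Of the 32 genes, 29 had a usable probe, among 18012 genes in the whole table. Ctsb had 1 probe, which held no value on any array, the probe of Psap was also assigned to a second gene, and Npc1 was not analysed here. The 29 genes were 10 proteases, 8 enzymes that remove sugars or sulfate, 4 genes of lipid handling and 7 membrane proteins.

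The ASO mice were male C57Bl/6 mice given 50 mg/kg of the miR-122 ASO intraperitoneally, 2 times a week for 4 weeks, and the labels state that they were killed 2 days after dosing ended. The saline mice had injections on the same schedule, and their labels do not state sex or strain. Each group held 5 mice, with 1 single-colour CodeLink array per liver. The ASO had a modified backbone (phosphorothioate) and modified sugars (2′-O-methoxyethyl), and the controls had no oligonucleotide, so an effect of the oligonucleotide chemistry and an effect of blocking miR-122 cannot be told apart here. Whole liver was measured, so fewer cells of a type and less RNA per cell cannot be told apart either.

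Lysosomes are acidic compartments in which hydrolases break down proteins, sugars, lipids and nucleic acids that arrive by endocytosis and autophagy. Most of the enzymes carry a mannose 6-phosphate tag that sorts them from the Golgi to the lysosome, and heavily glycosylated membrane proteins such as LAMP1 and LAMP2 line the limiting membrane. Many of their genes share a response to the transcription factor TFEB, which binds a motif built around CACGTG. In liver, hepatocytes and the resident macrophages (Kupffer cells) are both rich in lysosomes, and both cell types take up phosphorothioate oligonucleotides by endocytosis.

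The promoter windows in RefSeq (assembly GRCm38.p6, 250 bases before to 50 after each annotated start) held 27 of the 32 genes. CACGTG, which reads the same on both strands, was in a window of 10 of these 27 genes (37.0%), against 2187 of 27025 genes with a window (8.09%). Shown here are the 250 bases before the start for 3 genes with the motif (Lamp1, Cln3 and Mcoln1) and for 2 genes without it (Lamp2 and Gusb), because Lamp1, Lamp2, Cln3 and Gusb are among the genes with the smallest p described further on and Mcoln1 is a gene with the motif and a higher mean in ASO livers. The sequences run 5′ to 3′ and capitals mark CACGTG.
Lamp1: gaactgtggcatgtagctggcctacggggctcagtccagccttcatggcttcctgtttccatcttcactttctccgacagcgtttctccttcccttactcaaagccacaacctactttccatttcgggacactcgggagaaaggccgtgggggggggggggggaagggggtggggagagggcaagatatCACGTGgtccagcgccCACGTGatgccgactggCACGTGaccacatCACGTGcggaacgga
Cln3: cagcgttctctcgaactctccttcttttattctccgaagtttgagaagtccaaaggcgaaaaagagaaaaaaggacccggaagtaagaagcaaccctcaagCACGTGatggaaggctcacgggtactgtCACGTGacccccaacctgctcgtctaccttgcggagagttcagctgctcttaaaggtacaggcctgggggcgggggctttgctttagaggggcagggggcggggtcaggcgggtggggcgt
Mcoln1: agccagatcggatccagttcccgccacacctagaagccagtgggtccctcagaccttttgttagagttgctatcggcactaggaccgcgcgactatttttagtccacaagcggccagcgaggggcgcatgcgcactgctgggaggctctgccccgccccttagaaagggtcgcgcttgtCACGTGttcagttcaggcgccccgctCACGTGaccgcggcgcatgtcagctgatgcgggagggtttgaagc
Lamp2: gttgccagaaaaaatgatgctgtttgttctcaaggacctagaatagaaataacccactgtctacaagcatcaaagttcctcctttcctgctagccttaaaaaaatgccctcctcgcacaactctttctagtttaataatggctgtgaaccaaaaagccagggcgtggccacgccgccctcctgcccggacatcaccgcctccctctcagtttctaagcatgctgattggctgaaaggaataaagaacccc
Gusb: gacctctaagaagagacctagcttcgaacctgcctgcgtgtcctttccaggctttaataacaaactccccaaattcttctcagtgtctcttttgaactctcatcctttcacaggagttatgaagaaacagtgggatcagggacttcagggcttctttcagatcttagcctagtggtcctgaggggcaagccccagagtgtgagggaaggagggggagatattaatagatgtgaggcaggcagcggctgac
The Lamp1 window lies at chr8:13158911-13159160 (plus strand) and holds 4 copies, whose first bases are 61, 45, 28 and 15 bases before the start. The Cln3 window, the one with the motif of 2 annotated starts, lies at chr7:126583237-126583486 (minus strand). Its 2 copies begin 149 and 121 bases before the start. The Mcoln1 window lies at chr8:3500269-3500518 (plus strand), with copies 71 and 45 bases before the start. Those of Lamp2, at chrX:38456461-38456710 (minus strand), and of Gusb, at chr5:130003050-130003299 (minus strand), hold none.

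Treatment with the ASO was not accompanied by a called change in any of the 29 genes. The smallest adjusted p was 0.255, for Lamp2, and 0 of 29 genes passed an adjusted p of 0.05 in limma, where 23 of 36088 probes passed in the whole table (0.0637%). In the deposited scaling, 22 of the 29 genes had a lower mean in ASO livers than in saline livers (75.9%), and after quantile normalization the number was 18. A lower mean was also found in 55.0% of all genes and in 62.6% of the 10945 genes above the median level of all probes, and 26 of the 29 lay above that level. The share of all genes with a lower mean after quantile normalization was not counted. The median log2 fold change was -0.13 over the 29 genes, -0.04 over all genes and -0.11 over the genes above the median level. After quantile normalization these medians were -0.07, 0.01 and 0.00 in the same order. The 95% interval of the difference stayed within 2-fold either way for 25 of the 29 genes. These differences spread from -1.56 to 0.41 on the log2 scale.

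At an unadjusted p under 0.05 in limma, 6 genes were lower in ASO livers (20.7%) and 0 were higher. The background for lower genes was 8.26% over all genes and 11.3% over genes above the median level, and for higher genes 4.21% and 3.53%. The 6 genes were Lamp1, Lamp2, Cln3, Npc2, Ctsc and Gusb. The share depended on the scaling, since 3 genes (10.3%) were lower at this p after quantile normalization, where the background above the median level was 7.58%, and 2 genes (6.90%) after cyclic loess, with a background of 8.03%. It also depended on single arrays. Without ASO replicate 1, saline replicate 1 or saline replicate 2, 3 genes (10.3%) were lower at this p, where the background above the median level was 12.0%, 7.65% and 8.89% in the same order. Without ASO replicate 2, 3 or 5 or saline replicate 4, 4 genes (13.8%) were, with backgrounds of 10.2%, 8.93%, 14.3% and 10.2%. Without ASO replicate 4 or saline replicate 5, 5 genes (17.2%) were, with backgrounds of 10.8% and 11.3%. Without saline replicate 3, 6 genes (20.7%) were, with a background of 11.4%. Lamp1 and Lamp2 were below this p in all 18 alternatives run, Gusb in 17, Cln3 in 9, Npc2 in 7 and Ctsc in 6.

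**Figure D1:**
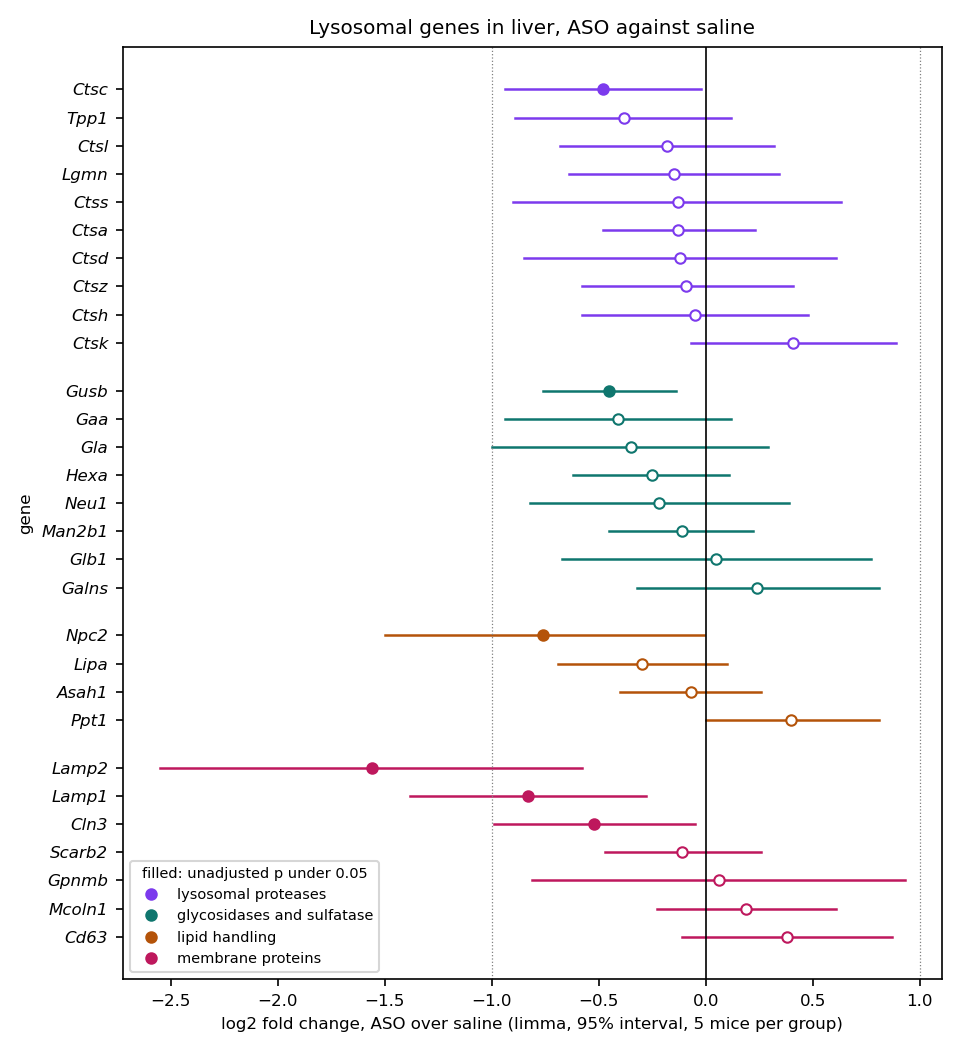
Log2 fold change of each of the 29 lysosomal genes (points) with its 95% interval (lines), ASO over saline, ordered by size within each role, with 5 mice per group. Filled points have an unadjusted p under 0.05, dotted lines mark 2-fold, and the 6 filled points all lie below 0, with Lamp2 at -1.56 farthest out.

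The membrane proteins held the largest differences of the set. LAMP2, a glycoprotein of the lysosomal membrane that is needed for fusion with autophagosomes and, as one isoform, for chaperone-mediated autophagy, had Lamp2 log2 intensities of 4.73, 5.64, 4.16, 3.98 and 6.28 in ASO livers, against 7.30, 6.86, 6.50, 5.61 and 6.35 in saline livers. The 3 lowest ASO livers lay below each saline liver, while ASO replicates 2 and 5 lay within the saline range. The means were 4.96 ± 0.98 in ASO livers and 6.52 ± 0.63 in saline livers (SD, n = 5 each), a log2 fold change of -1.56 ± 0.45 (SE), or 33.8% of the saline level, with a 95% interval of -2.55 to -0.58.

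Lamp1, which encodes the other main glycoprotein of this membrane, stood at 5.43, 6.14, 5.03, 5.46 and 6.11 in ASO livers, against 6.80, 6.67, 6.13, 6.09 and 6.63 in saline livers. The groups overlapped narrowly, because ASO replicates 2 and 5 again reached the 2 lowest saline livers. Its log2 fold change was -0.83 ± 0.25 (SE), 56.3% of the saline level, with an adjusted p of 0.274 in limma. ASO replicates 1, 3 and 4 were thus the 3 lowest of the 10 livers for both Lamp genes.

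Cln3, a membrane protein whose loss causes a childhood neuronal storage disease, had 2.68, 2.22, 2.57, 3.34 and 2.46 in ASO livers, against 3.23, 3.40, 2.94, 2.99 and 3.30 in saline livers. Here ASO replicate 4 was among the high livers and the other 4 ASO livers lay below all saline livers, unlike the order seen for the Lamp genes. The log2 fold change was -0.52 ± 0.22 (SE), with an adjusted p of 0.404 in limma.

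The other membrane proteins gave no difference of this size. Scarb2, the receptor that carries glucocerebrosidase to the lysosome, had 7.46, 7.76, 7.11, 7.61 and 7.34 in ASO livers, against 7.35, 7.68, 7.64, 7.54 and 7.60 in saline livers. The ASO values spanned the saline values on both sides, and the log2 fold change of -0.11 ± 0.17 (SE) had an interval of -0.47 to 0.26. Mcoln1, the calcium channel of the lysosome, had 0.19 ± 0.19 and the tetraspanin gene Cd63 0.38 ± 0.22. Gpnmb, a glycoprotein that marks lipid-laden macrophages, had 0.06 ± 0.40 and lay at the floor of the scale in ASO replicate 1.

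**Figure D2:**
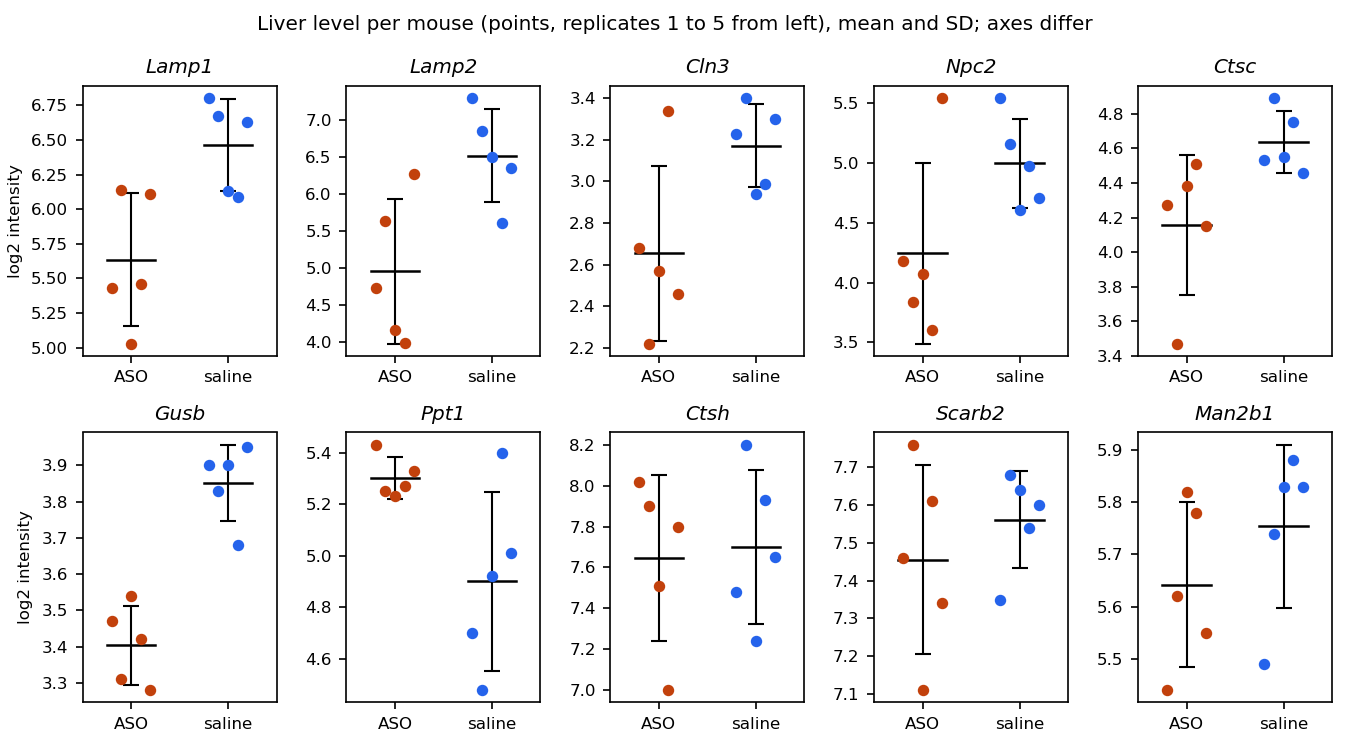
Log2 intensity in each liver (points) with the mean and SD of 5 mice per group, ASO left and saline right, for the 6 genes with an unadjusted p under 0.05 and for Ppt1, Ctsh, Scarb2 and Man2b1, the highest probe of each role. The groups are apart only for Gusb among these 10, and each panel has its own axis.

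Among the 4 genes of lipid handling, Npc2, the soluble carrier that hands cholesterol to NPC1 for export, had 4.18, 3.84, 4.07, 3.60 and 5.54 in ASO livers, against 5.54, 5.16, 4.61, 4.97 and 4.71 in saline livers. ASO replicate 5 equalled the highest saline liver and the other 4 ASO livers lay below all saline livers. The log2 fold change was -0.76 ± 0.34 (SE), with an adjusted p of 0.438 in limma, and it was -1.08 without ASO replicate 5.

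Ppt1, which removes palmitate from proteins, had a higher mean in ASO livers. It had 5.43, 5.25, 5.23, 5.27 and 5.33 in ASO livers, against 4.70, 4.48, 4.92, 5.40 and 5.01 in saline livers. The ASO livers were close together and above 4 of the 5 saline livers, and the log2 fold change was 0.40 ± 0.19 (SE), with an adjusted p of 0.448 in limma. Lipa, the acid lipase that frees cholesterol from its esters, had -0.30 ± 0.18 and Asah1, acid ceramidase, -0.07 ± 0.15, and the Asah1 value was 0.05 after quantile normalization.

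Of the enzymes that remove sugars or sulfate, Gusb was the 1 gene of the 29 whose groups did not overlap (3.45%, against 1.72% of all genes in the lower direction). Gusb encodes beta-glucuronidase, and it had 3.47, 3.31, 3.54, 3.42 and 3.28 in ASO livers, against 3.90, 3.83, 3.90, 3.68 and 3.95 in saline livers. The spread within each group was small, with means of 3.40 ± 0.11 in ASO livers and 3.85 ± 0.10 in saline livers (SD, n = 5 each). The log2 fold change was -0.45 ± 0.14 (SE), 73.1% of the saline level, with an adjusted p of 0.279 in limma.

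Man2b1, the alpha-mannosidase of the lysosome, gave different values at its 2 probes. The probe with the higher mean had 5.44, 5.62, 5.82, 5.78 and 5.55 in ASO livers, against 5.49, 5.74, 5.83, 5.88 and 5.83 in saline livers, so the groups lay on top of each other. The second probe had 4.28, 3.88, 4.05, 3.41 and 2.42 in ASO livers, against 4.60, 4.79, 4.56, 5.14 and 4.19 in saline livers, where only ASO replicate 1 reached the saline range. Their log2 fold changes were -0.11 ± 0.15 and -1.05 ± 0.33 (SE), and neither passed the adjusted threshold in limma (0.817 and 0.279).

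The other 6 genes of this role had intervals that included 0. Gaa, the acid alpha-glucosidase that breaks down glycogen, had -0.41 ± 0.24 (SE) and Gla, alpha-galactosidase A, -0.35 ± 0.30, or -0.18 without ASO replicate 3. Hexa, a subunit of beta-hexosaminidase, had -0.25 ± 0.17 and Neu1, the lysosomal sialidase, -0.22 ± 0.28. Glb1, the lysosomal beta-galactosidase, had 0.05 ± 0.33, and -0.20 without saline replicate 3, its lowest liver. Galns, a sulfatase of keratan sulfate, had 0.24 ± 0.26 at the probe used, or 0.05 without saline replicate 4, and -0.09 ± 0.16 at its other probe.

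Among the 10 proteases, 9 had a lower mean in ASO livers, 1 of them at an unadjusted p under 0.05. Ctsc, which encodes cathepsin C, an activator of granule proteases in immune cells, had 4.27, 3.47, 4.38, 4.51 and 4.15 in ASO livers, against 4.53, 4.89, 4.55, 4.75 and 4.46 in saline livers. ASO replicate 2 stood well below the rest, 3 of the other ASO livers lay below all saline livers, and the log2 fold change of -0.48 ± 0.21 (SE) was -0.31 without that liver. The 3 other probes of Ctsc gave -0.22 ± 0.29, -0.24 ± 0.17 and -0.17 ± 0.19.

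Ctsh, an aminopeptidase that also processes surfactant protein in lung, had 8.02, 7.90, 7.51, 7.0 and 7.80 in ASO livers, against 7.48, 8.20, 7.24, 7.93 and 7.65 in saline livers. The groups covered the same range, and the log2 fold change was -0.05 ± 0.24 (SE), with an interval of -0.58 to 0.48. Tpp1, a tripeptidyl peptidase, had -0.38 ± 0.23. The cysteine protease genes Ctsl (-0.18 ± 0.23), Ctsz (-0.09 ± 0.23) and Ctss (-0.13 ± 0.35), of which cathepsin S trims the invariant chain in antigen-presenting cells, and the aspartic protease gene Ctsd (-0.12 ± 0.33) had smaller differences. Lgmn, an asparaginyl endopeptidase that matures other cathepsins, had -0.15 ± 0.22, and Ctsa, a carboxypeptidase that stabilises the sialidase and beta-galactosidase, -0.13 ± 0.16. Ctsk, the collagenase of osteoclasts, was the single protease with a higher mean in ASO livers (0.41 ± 0.22). The values of Ctss, Ctsd and Ctsa turned to 0.02, 0.04 and 0.03 after quantile normalization.

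**Figure D3:**
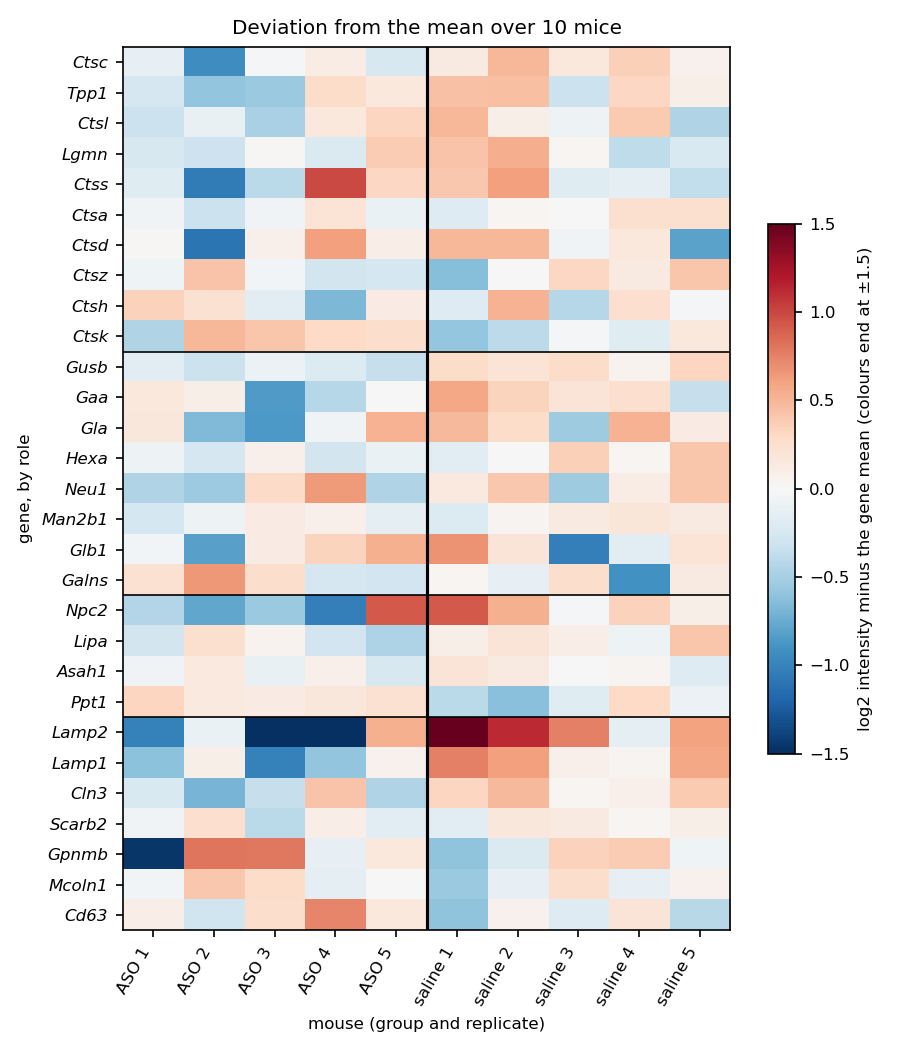
Log2 intensity of each gene in each liver minus that gene's mean over the 10 livers, with ASO livers left of the line and saline livers right of it and genes grouped by role. Blue cells are below the gene's mean and red cells above it, with the strongest blue for Lamp2 in ASO replicates 3 and 4 and for Gpnmb in ASO replicate 1.

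The livers differed in which genes were low. ASO replicate 1 had 22 of the 29 genes below their mean over the 10 livers and ASO replicate 2 had 17, whereas saline replicate 2 had 7 and saline replicate 4 had 8. The lowest value of a gene fell on ASO replicate 2 for 7 genes, among them Ctsc, Ctsd, Ctss and Cln3. The highest value fell on the same liver for 6 others, among them Ctsz, Galns, Scarb2 and Mcoln1. Saline replicate 1 held the highest value for 7 genes, among them Lamp1 and Lamp2, and the lowest for 4. With saline replicate 1 left out, the smallest adjusted p of the 29 genes was 0.53 in limma. ASO replicate 2 had the lowest mean of the 10 livers over the sinusoidal endothelial markers (1.43) and the stellate cell markers (1.32). Its lymphocyte and hepatocyte marker means, -0.49 and 9.36, were not the lowest. It was also the liver with the lowest mean over the 14 measured Kupffer cell and macrophage markers, 1.53 on the log2 scale. The other ASO livers were at 2.60 to 3.43 and the saline livers at 2.71 to 3.72. Of these markers 11 of 14 had a lower mean in ASO livers, 0 of 14 passed the adjusted threshold, 2 were lower at an unadjusted p under 0.05 (Mpeg1 -1.45 ± 0.48 and Cd163 -0.81 ± 0.35) and none lay at the floor on all arrays. The third named by p, C1qa, had -0.67 ± 0.41. These counts come to 78.6% with a lower mean and 14.3% lower at this p, against 62.6% and 11.3% of the genes above the median level, where 12 of the 14 markers lay. The 3 markers with a higher mean were Marco (0.28 ± 0.78), Adgre1 (0.26 ± 0.23) and Vsig4 (0.16 ± 0.53). Among the lower ones, Clec4f had -0.20 ± 0.25 and Timd4 -0.07 ± 0.23. Without ASO replicate 2 the marker values were -0.99 for Mpeg1, -0.84 for Cd163 and -0.33 for C1qa. Without that liver Ctsd and Ctss had log2 fold changes of 0.14 and 0.11, Cln3 -0.41, Lamp1 -0.95 and Lamp2 -1.74. The part of macrophage content, or of other cell types, in the lysosomal values was not tested beyond these numbers.

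Hepatocyte markers were present at high levels in every liver, with a mean log2 level of 8.95 to 9.37 in ASO livers and 8.51 to 9.27 in saline livers. Over the lists of other liver cells, the mean log2 level was 1.43 to 2.67 in ASO livers and 1.66 to 2.62 in saline livers for sinusoidal endothelial cells and 1.32 to 2.07 in ASO livers and 1.81 to 2.11 in saline livers for stellate cells. The lymphocyte markers, mostly dim, stood at -0.58 to -0.25 in ASO livers and -0.25 to -0.07 in saline livers (after quantile normalization -0.56 to -0.27 in ASO livers and -0.24 to -0.06 in saline livers, which did not overlap). Of these 9 markers, 7 had a lower mean (77.8%, against 55.0% of all genes). At an unadjusted p under 0.05, 2 were lower (22.2%, against 8.26% of all genes), Ms4a1 at -0.57 ± 0.16 and Klrb1c at -0.91 ± 0.36. The genes with the smallest p in these lists, after those 2, were Cd79a (-0.51 ± 0.23), Alb (0.57 ± 0.27), Cyp3a11 (-0.53 ± 0.25), Arg1 (-0.32 ± 0.16), Cdh5 (0.87 ± 0.28), Stab1 (0.49 ± 0.32), Gata4 (-0.44 ± 0.36), Col3a1 (-0.34 ± 0.18), Pdgfrb (-0.41 ± 0.26) and Hhip (0.37 ± 0.24), and none passed the adjusted threshold in limma.

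Split by the promoter windows, the 10 measured genes with CACGTG had a median log2 fold change of -0.16 and a range of -0.83 (Lamp1) to 0.19 (Mcoln1), and the 16 measured genes whose windows lack it had a median of -0.18 and a range of -1.56 (Lamp2) to 0.41 (Ctsk). At an unadjusted p under 0.05, 2 of the 10 and 4 of the 16 were lower. A match in these windows is a description of the letters and shows no binding.

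Other hydrolases of the lysosome had a lower mean in ASO livers for 20 of 25 measured genes, with a median log2 fold change of -0.35 and 0 genes past the adjusted threshold. Their mean log2 level was 1.77 to 2.15 in ASO livers, against 2.21 to 2.32 in saline livers, so the livers did not overlap on this average, and after quantile normalization it was 1.82 to 2.19 in ASO livers and 2.20 to 2.31 in saline livers. At an unadjusted p under 0.05, 4 were lower (16.0%) and 1 was higher, Idua at 0.45 ± 0.19 (SE). Of all genes 8.26% were lower at this p, and 11.3% of the genes above the median level, where 18 of the 25 lay. The share with a lower mean was 80.0%, against 55.0% of all genes and 62.6% of the genes above the median level. Naglu, which removes N-acetylglucosamine from heparan sulfate, had -0.26, -0.97, -0.52, -0.22 and -0.71 in ASO livers, against -0.06, 0.04, -0.14, -0.03 and 0.05 in saline livers, and its groups were apart, as were those of 1.72% of all genes in this direction. The serine carboxypeptidase gene Scpep1 had -0.75 ± 0.31 (SE) and Gm2a, the activator of ganglioside breakdown, -0.50 ± 0.21. All 3 are dim probes, and with a pseudocount of 1 in place of the floor the values were -0.22 for Naglu, -0.22 for Scpep1 and -0.21 for Gm2a. Gm2a was -0.23 with the mean of all its probes. The remaining lower gene at this p, Ctsf, had a brighter probe, with -0.67 ± 0.30.

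Other proteins of the lysosomal membrane had 8 of 15 measured genes lower and a median of -0.04 (0.01 after quantile normalization). Slc17a5, the sialic acid exporter, had -0.80 ± 0.30 (SE), Cd164, a sialomucin, -0.63 ± 0.23 and Ctns, the cystine exporter, -0.42 ± 0.19. These were the 3 of the 15 genes with an unadjusted p under 0.05. The background for lower genes at this p was 8.26% over all genes. It was 11.3% over genes above the median level, where 12 of the 15 lay. Ctns lay just under the cut, at an unadjusted p of 0.0495 in limma. Ctns was under 0.05 in 4 of 18 alternatives, and Slc17a5 and Cd164 in 15 each. The proton pump that acidifies the lysosome (V-ATPase) had 11 of 20 measured subunit genes lower, with a median of -0.08 (0.10 after quantile normalization). Its accessory subunit gene Atp6ap1 had 3.81, 3.30, 2.28, 2.25 and 3.76 in ASO livers, against 4.41, 4.31, 3.55, 4.22 and 4.02 in saline livers. ASO replicates 3 and 4 were the lowest for Atp6ap1, as they were for Lamp2, and the log2 fold change was -1.02 ± 0.34 (adjusted p = 0.297 in limma). Tcirg1, a membrane subunit, had -0.60 ± 0.25 and Atp6v1g2, a dim probe, 0.54 ± 0.21. The mean of all probes of Tcirg1 gave -0.14, and the pseudocount gave 0.13 for Atp6v1g2. In all, 2 of the 20 subunit genes were lower and 3 higher at an unadjusted p under 0.05. Of the genes above the median level, where 17 of the 20 lay, 11.3% were lower and 3.53% higher at this p. The other 2 higher subunit genes had brighter probes than Atp6v1g2, with Atp6v1b2 at 0.54 ± 0.24 and Atp6v0e at 0.52 ± 0.23.

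Genes that sort enzymes to the lysosome had 14 of 20 measured members lower, with a median of -0.24. Gnptab, which encodes the phosphotransferase that starts the mannose 6-phosphate tag, had 1.12, 0.57, 0.31, -0.71 and 1.24 in ASO livers, against 2.27, 1.60, 1.40, 1.34 and 0.84 in saline livers. All ASO livers but replicates 1 and 5 lay below the lowest saline liver, and the log2 fold change was -0.99 ± 0.37 (SE). Nagpa, the enzyme that uncovers this tag, had -0.48 ± 0.19. Sort1, encoding sortilin, a sorting receptor that also binds apolipoprotein B, had 0.50, 0.56, 0.78, 1.06 and 0.46 in ASO livers, against -0.26, 0.16, -0.02, 0.11 and 0.03 in saline livers. The Sort1 groups were apart, with a log2 fold change of 0.67 ± 0.17 and an adjusted p of 0.209 in limma. How many of all genes were apart in the higher direction was not counted. With a pseudocount of 1 in place of the floor the values were 0.38 for Sort1, -0.63 for Gnptab and -0.29 for Nagpa.

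Regulators of lysosomal genes had 10 of 17 measured members lower, a median of -0.02 (0.12 after quantile normalization) and 0 genes at an unadjusted p under 0.05, with Rptor at 0.55 ± 0.28 (SE), Mtor at 0.42 ± 0.22 and Rraga at -0.35 ± 0.20. Autophagy genes had 11 of 18 lower and a median of -0.05 (0.11 after quantile normalization). At an unadjusted p under 0.05, 2 were higher, Atg12 at 0.60 ± 0.24 and the cargo receptor gene Sqstm1 at 0.40 ± 0.18, and 0 were lower. Of the genes above the median level, where 17 of the 18 lay, 3.53% were higher and 11.3% lower at this p. Gabarapl1, a dim probe, had -0.40 ± 0.18, or -0.17 with a pseudocount of 1 in place of the floor. Sqstm1 and Gabarapl1 lay just on either side of the cut, at an unadjusted p of 0.0499 and 0.0504 in limma. Sqstm1 was under 0.05 in 7 of 18 alternatives and Gabarapl1 in 7 of the 17 that tested it. The Gabarapl1 groups did not overlap, as was so for 1.72% of all genes in the lower direction. They were barely apart, with the highest ASO liver at -0.42 and the lowest saline liver at -0.41. Cystatins, which inhibit cysteine cathepsins, had 5 measured genes, 4 of them lower, with a median of -0.06, and Cst6 (-0.51 ± 0.30), Cst10 (-0.11 ± 0.19) and Cst7 (0.12 ± 0.20) had the smallest p. Across all 7 of these pathway lists 0 genes passed the adjusted threshold in limma.

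**Figure D4:**
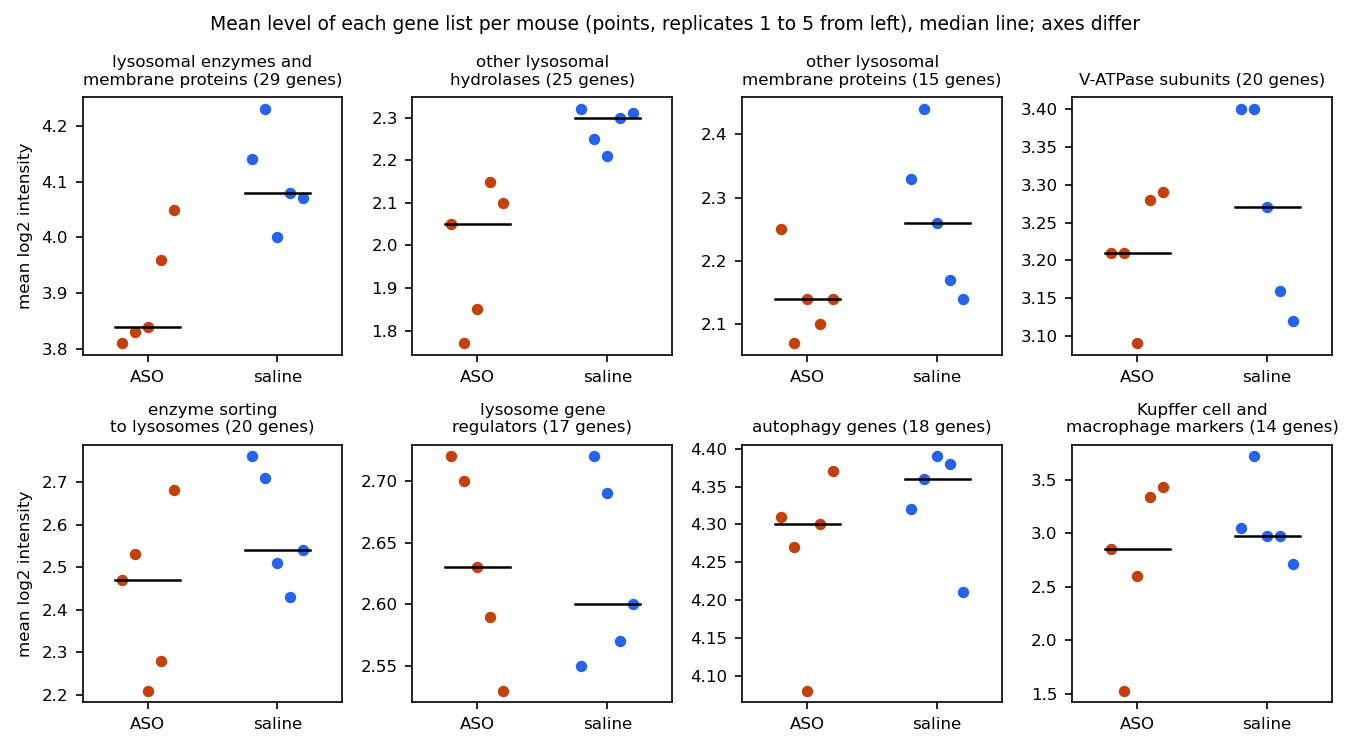
Mean log2 intensity over each gene list in each liver (points) with the group median (line), ASO left and saline right, for the 29 lysosomal genes, 6 lists of the pathway and the Kupffer cell markers, each on its own axis. The livers of the groups are apart for the other hydrolases (1.77 to 2.15 in ASO livers, 2.21 to 2.32 in saline livers) and overlap in the other 7 panels.

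The size of a difference from 1.5-fold up, which the study's design text names, was reached in the lower direction by Lamp2, Lamp1 and Npc2 (10.3% of the 29 genes, against 12.3% of genes above the median level) and in the higher direction by 0 of the 29 genes. The standard error of the log2 fold change was 0.14 to 0.45 with a median of 0.23 over the 29 genes. The SD between livers was 0.08 to 0.98 in ASO livers, with a median of 0.39, and 0.10 to 0.64 in saline livers, with a median of 0.34.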

How the data were processed

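Liver RNA of 5 ASO and 5 saline mice was measured on single-colour CodeLink arrays. The authors deposited 1 linear intensity per probe and array, with medians of 1.03 to 1.05 per array. How background was subtracted and arrays were scaled is not given in the sources used here. Between 74 and 375 tested values per array were at or below 0. The brightest value of saline replicate 1 was 542, against 1198 to 2333 elsewhere. Arrays correlated at r = 0.949 to 0.982 within groups and 0.942 to 0.973 between groups. The number of arrays limits the precision, and the labels do not say more of how the mice were kept or batched.

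Of 36227 probes, 139 with fewer than 3 values in a group were left out. Values below the 10th percentile of positive values (0.192) were raised to that floor before the log2 of the deposited intensity was computed, which understates differences of dim probes. Probes were named by the platform annotation, with symbols updated by Entrez ID from RefSeq. Differences are ASO minus saline from limma 3.58.1 in R 4.3.3 (lmFit and eBayes, two-sided, Benjamini-Hochberg over all 36088 probes), and the procedure was tested on simulated data. The genes and lists were chosen with earlier results of these data known, so lists are described by counts and medians and have no test.

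Values per liver are given for genes with an unadjusted p under 0.05 and the brightest probe of each role, and from each other list the 3 genes with the smallest p are named. Some values of further genes, per liver or as fold changes, were added after they were seen. The lists covered other lysosomal genes, autophagy and markers of 5 cell types. Alternatives were 2 normalizations, 2 treatments of low values, a filter on dim probes, a variance trend, array weights, averaging the probes of each gene, and leaving out each array.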

Additional observations from a re-analysis of the deposited data

Results flagged for a closer look

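In 5 of 106 groups of 5 livers examined, 1 liver stood far from the other 4, by a gap beyond Dixon's 95% critical value. Chance alone gives about 1 in 20. Ctsk was -1.59 in ASO replicate 1, with the other ASO livers at -0.88 to -0.64, and without that liver its log2 fold change was 0.57, with an adjusted p of 0.279 in limma. Nagpa was 0.74 in ASO replicate 5, with the others at 0.25 to 0.37. Gabarapl1 was -1.0 in ASO replicate 3, with the others at -0.57 to -0.42. Tcirg1 was 2.35 in saline replicate 4, with the others at 3.31 to 3.51, and Rptor was -0.36 in saline replicate 4, with the others at 0.22 to 0.38.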

How the results depend on the processing

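In each of the 18 alternatives 0 of the 29 genes passed the adjusted threshold (smallest adjusted p 0.101, for Gusb with a pseudocount of 1 in place of the floor). The count lower at an unadjusted p under 0.05 was 6, and 3 after quantile normalization, 2 after cyclic loess and 3 to 6 with 1 array left out. The count higher was 0, and 2 (Ppt1 and Cd63) after quantile normalization, 1 after cyclic loess, 1 with the pseudocount, 1 with array weights, 1 with the mean of all probes, and 0 to 1 with 1 array left out. Genes with a higher mean numbered 7, and 11 after quantile normalization and 6 to 9 with 1 array left out. The median of the 29 was -0.03 after cyclic loess and -0.21 to -0.11 with 1 array left out. Medians moved to 0.10 for V-ATPase, 0.12 for regulators and 0.11 for autophagy genes after quantile normalization, 0.06 for autophagy genes after cyclic loess, -0.21 for other hydrolases with the pseudocount and -0.18 for other membrane proteins with only probes above the median level. With 1 array left out they were -0.14 to 0.01 for other membrane proteins and -0.09 to 0.01 for autophagy genes. The cause was not tested.

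Of the 29 genes, 20 kept their direction in each alternative that tested them, and the 9 others, with main values between -0.13 and 0.06, turned in some. After quantile normalization the values were -0.01 for Gpnmb, 0.02 for Ctss, 0.03 for Ctsa, 0.04 for Ctsd, 0.05 for Asah1 and 0.05 for Man2b1. After cyclic loess they were 0.00 for Gpnmb, 0.02 for Ctsh and 0.06 for Asah1. Gpnmb was -0.01 with array weights and -0.06 with no floor, and Ctsa 0.13 with the mean of all probes. Cst10 was 0.39 with no floor and 0.00 with the pseudocount. With 1 array left out, the ranges that crossed 0 were -0.13 to 0.44 for Gpnmb, -0.40 to 0.11 for Ctss, -0.34 to 0.14 for Ctsd, -0.20 to 0.26 for Glb1, -0.17 to 0.11 for Ctsh, -0.26 to 0.01 for Ctsz and -0.19 to 0.01 for Cst10. No paired analysis was possible because the labels give no shared replicate numbers.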
